A study of Mus musculus with 8 samples.

Results

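The transcripts described here encode NRF2 (Nfe2l2) and NRF1 (Nfe2l1), the NRF2 adaptor KEAP1, the repressor BACH1, the small MAF proteins MAFF, MAFG and MAFK, and 2 known NRF2 targets, Nqo1 and Osgin1. These 9 genes were picked by name out of 55414 in the deposited table, by matching each gene identifier to its symbol. That rule uses no measured value, but earlier results of these data were known when the genes were chosen. All 9 passed the filter on low counts that left 16304 genes for testing. Messenger RNA came from iBMDM cells, wild-type mouse macrophages grown out of bone marrow and immortalized as a line.

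The 8 libraries form 4 groups of 2. DSF+LPS cells had 5 µM disulfiram (DSF) for 0.5 h and then 1 µg/ml lipopolysaccharide (LPS) for 4 h. DSF cells had the same pretreatment and then water. LPS cells had the solvent DMSO and then LPS, and control cells had DMSO and then water. DSF, an inhibitor of aldehyde dehydrogenase, is given against alcohol dependence, and LPS is the bacterial ligand of TLR4, whose activation the study tested with and without the drug. The labels number the libraries of a group 1 and 2 and do not name separate cultures. All p-values therefore reflect the spread between those libraries and nothing wider, and that spread may be technical.

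NRF2 is made continuously and, in unstressed cells, is bound by KEAP1, which hands it to a CUL3 ubiquitin ligase for degradation. Electrophiles and oxidants modify cysteines of KEAP1, NRF2 then escapes, pairs with a small MAF protein and binds antioxidant response elements in genes for glutathione, quinone and heme metabolism. BACH1 pairs with the same small MAF proteins and represses many of the same genes until heme removes it. NRF1, a relative held in the endoplasmic reticulum, drives proteasome subunit genes. In macrophages these factors are known for setting the response to oxidants, heme and iron. Messenger RNA levels do not show how much NRF2 protein is present, since KEAP1 acts on the protein.

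Depth was similar in all libraries, with totals between 17822041 and 21694922 counts, and the common biological coefficient of variation was 7.85%. The 8 macrophage markers checked, such as Cd68, Adgre1 and Csf1r, were all detected, and their summed level was 2319 to 2431 CPM (read counts scaled to a common library size) in DSF+LPS, 1958 to 2129 in DSF, 2560 to 2700 in LPS and 2176 to 2224 CPM in control. Single macrophage markers moved apart: 2 of the 8 rose and 4 fell in DSF against control, and 2 rose and 5 fell in DSF+LPS against LPS. Chosen after their values were seen, Fcgr1 changed by -1.93 and -2.36 on the log2 scale in those comparisons, Csf1r by -0.82 and -0.59, and Cd68 by 0.39 and 0.72 (highest adjusted p of these 0.000621). The summed markers of each of 5 other cell classes reached at most 14.2 CPM, and S100a9, Cd3e and Cd8a had no count in any library. Some of these low sums were higher with DSF: 1.36 to 2.12 CPM in DSF and 0.174 to 0.362 in control for lymphocyte markers, 0.906 to 0.981 and 0.0436 to 0.0517 CPM in DSF and control for neutrophil markers, and 2.32 to 2.76 and 0.724 to 0.915 CPM in DSF and control for fibroblast markers. With LPS present, lymphocyte markers summed to 1.20 to 2.88 CPM in DSF+LPS and 0.478 to 0.540 in LPS. Dendritic cell markers were also higher there, at 3.06 to 3.28 and 1.62 to 2.39 CPM. Neutrophil markers (0.327 to 0.706 and 0.191 to 0.638 CPM) and fibroblast markers (2.13 to 2.52 and 1.77 to 2.21 CPM) overlapped between DSF+LPS and LPS. Epithelial or endothelial markers were lower in DSF+LPS, at 8.62 to 12.6 CPM against 13.0 to 14.2 in LPS. Without LPS these markers were higher with the drug, at 10.3 to 11.1 CPM in DSF against 8.15 to 8.33 in control. More genes had at least 1 count in the 4 libraries with DSF (23416 to 25081) than in the 4 without it (19779 to 20324). The part of these marker values and of that gap in the results below was not tested. In bulk RNA, fewer cells making a transcript and less of it per cell cannot be told apart.

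RefSeq promoter windows of GRCm38.p6, 250 bases before to 50 after a transcription start, were found for all 9 genes, 15 windows in all. They were searched on both strands for the antioxidant response element, TGACNNNGC, and for the MAF recognition motif GCTGANTCA, since these letters are what NRF2, BACH1 and small MAF pairs are known to bind. The antioxidant response element was present in 12.4% of all 32851 windows, in 4 of the 15 windows here (1 each of Maff, Mafg, Mafk and Nfe2l2) and in 14 of 37 windows of other NRF2 target genes. The MAF recognition motif was present in 1.19% of all windows, in 5 of the 37 and in 1 of the 15, that of Osgin1. That match contains the AP-1 motif TGANTCA, found in 7.81% of all windows and in no other window of these genes. The matches are printed with flanking bases, 5′ to 3′ on the strand of the gene, with the matched letters in capitals. Those of Mafg and Mafk lie on the opposite strand, and that of Maff lies before the first of its 3 starts. Bases after the start were looked for in known transcripts of each gene. They were found as written for the printed windows of Osgin1, Maff, Mafk and Mafg, and in neither orientation for that of Nfe2l2.
Osgin1 (chr8:119437028-119437076, plus strand, match 91 bases before the start): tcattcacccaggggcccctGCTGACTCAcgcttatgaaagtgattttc
Maff (chr15:79346489-79346537, plus strand, match 104 bases before the start): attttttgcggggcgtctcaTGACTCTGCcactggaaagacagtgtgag
Mafk (chr5:139791503-139791551, plus strand, match 5 bases before the start): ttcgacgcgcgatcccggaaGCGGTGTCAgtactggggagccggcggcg
Mafg (chr11:120633741-120633789, minus strand, match 214 bases before the start): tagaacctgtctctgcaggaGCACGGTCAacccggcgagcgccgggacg
Nfe2l2 (chr2:75704875-75704913, minus strand, match 232 bases before the start): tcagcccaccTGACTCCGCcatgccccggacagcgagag
Of 4 further motifs searched, the heat shock motif TTCNNGAA (8.52% of all windows) was found once, in Mafg, and the cAMP response element TGACGTCA (1.79%) once, in Maff. The C/EBP-ATF motif TGATGCAA (0.895%) and the NF-kB motif GGGNNTTCC (5.82%) were in none of the 15 windows. A match describes the letters and does not show binding.

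With DSF, the transcripts of BACH1, of all 3 small MAF proteins and of both NRF2 targets rose, and those of NRF2, NRF1 and KEAP1 fell, whether or not LPS followed. In DSF against control, 6 of the 9 genes rose, beside 31.0% of all genes tested, and 3 fell, beside 27.1%. When LPS followed (DSF+LPS against LPS), 6 rose, beside 33.7% of all genes, and 3 fell, beside 31.6%. Their median log2 fold change was 1.85 in DSF against control, where the median of all genes was 0.05, and 1.51 in DSF+LPS against LPS, where it was 0.04. Rose and fell are used of genes with an adjusted p under 0.05 over all 16304 genes, and log2 fold changes carry the standard error (SE) of the fit.

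LPS without the drug raised 5 of the 9 (15.2% of all genes rose) and lowered 1 (13.8% fell). In DSF+LPS against DSF, 2 rose (5.53% of all genes) and none fell (6.53%) by edgeR. DESeq2 called 3 of the 9 higher there, adding Nfe2l1 (0.32, adjusted p = 0.0122), and none lower. At an unadjusted p under 0.05 by edgeR, 4 of the 9 were higher and 1, Nqo1, was lower. The comparisons share libraries: LPS against control and DSF against control use the same control libraries, and DSF+LPS against LPS and DSF+LPS against DSF use the same DSF+LPS libraries.

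**Figure D1:**
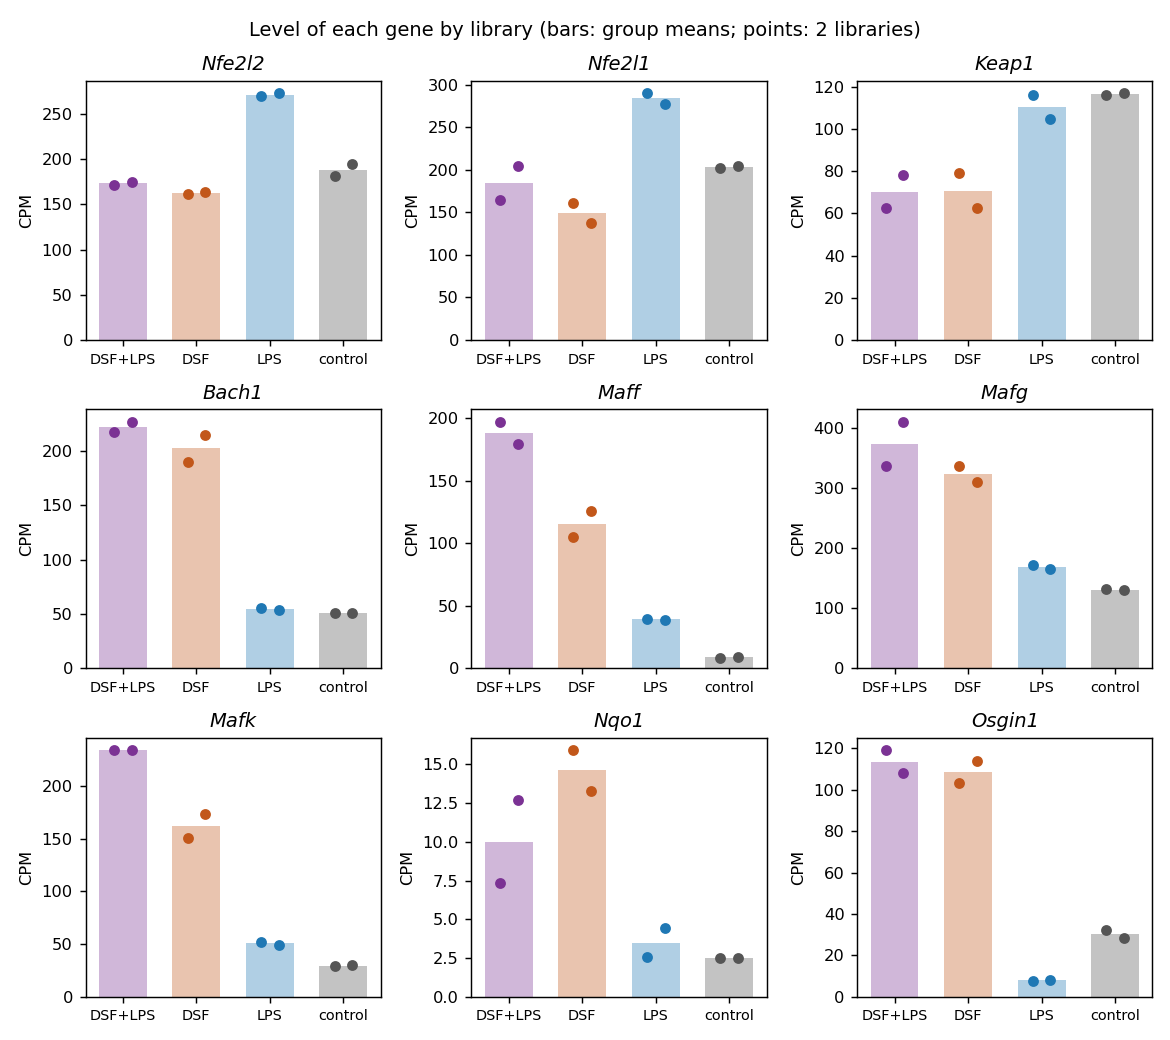
Level of each of the 9 transcripts in CPM on a linear axis, with a bar for the mean of a group and a point for each of its 2 libraries. Bach1, Maff, Mafg, Mafk, Nqo1 and Osgin1 are higher in DSF+LPS than in LPS and in DSF than in control, and Osgin1 is lowest in LPS.

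Nfe2l2, which encodes NRF2, was at 172 and 175 CPM in DSF+LPS, 161 and 164 in DSF, 270 and 273 in LPS, and 181 and 195 CPM in control. The 2 LPS libraries were the highest and the 2 DSF libraries the lowest, and no pair of groups overlapped. Nfe2l2 rose with LPS by 0.53 on the log2 scale (SE 0.07, adjusted p = 1.79e-05). With DSF before LPS it was lower than with LPS alone, by a log2 fold change of -0.65 (SE 0.07, adjusted p = 8.22e-07). DSF against control gave -0.21 (SE 0.07, adjusted p = 0.0147), a call that did not hold without control replicate 2 (-0.17, adjusted p = 0.135) or with only genes averaging at least 5 CPM kept (-0.11, adjusted p = 0.134). DSF+LPS against DSF gave 0.09 (SE 0.07, adjusted p = 0.411), so the LPS response of Nfe2l2 differed with the drug by -0.44 (SE 0.09, adjusted p = 0.00401 for the interaction).

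Nfe2l1, which encodes NRF1, had 165 and 205 CPM in DSF+LPS, 161 and 138 in DSF, 290 and 278 in LPS, and 202 and 204 CPM in control. LPS libraries were again the highest and DSF libraries the lowest, while DSF+LPS replicate 2 reached the control level. The rise with LPS was 0.49 (log2, SE 0.10, adjusted p = 0.00128). The fall was -0.44 (SE 0.10, adjusted p = 0.00134) in DSF against control and -0.62 (SE 0.10, adjusted p = 5.58e-05) in DSF+LPS against LPS. DSF+LPS against DSF gave 0.31 (SE 0.10, adjusted p = 0.0553); over 15 alternative settings this adjusted p ran from 0.000907, without DSF+LPS replicate 1, to 0.24. The interaction was -0.18 (SE 0.14, adjusted p = 0.414).

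Keap1, the adaptor that binds NRF2, measured 62.5 and 78.1 CPM in DSF+LPS, 79.0 and 62.7 in DSF, 116 and 105 in LPS, and 116 and 117 CPM in control. All 4 libraries with DSF lay below all 4 without it, and DSF+LPS and DSF overlapped. Keap1 fell by 0.72 on the log2 scale in DSF against control (SE 0.11, adjusted p = 8.41e-05). Against LPS alone, DSF+LPS gave -0.65 (SE 0.11, adjusted p = 0.000158). LPS against control gave -0.08 (SE 0.11, adjusted p = 0.672) and DSF+LPS against DSF -0.01 (SE 0.12, adjusted p = 0.958). The antisense gene Gm16754 overlaps 510 exon bases of Keap1 (10.9%) and had 448 counts over the 8 libraries; how the counting used strand is not given in the sources used here.

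The ratio of Nfe2l2 to Keap1 transcript, each per kilobase of exon, was 3.40 and 2.77 in DSF+LPS, 2.52 and 3.23 in DSF, 2.89 and 3.20 in LPS, and 1.92 and 2.06 in control. All 6 treated libraries exceeded both controls, and the 3 treated groups overlapped one another. The pair fell together with DSF, whereas with LPS Nfe2l2 rose and Keap1 did not pass the test. Ratios between these genes are descriptions and carry no test.

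Bach1 encodes the repressor that competes with NRF2 for small MAF partners. Its level was 218 and 227 CPM in DSF+LPS, 190 and 215 in DSF, 55.8 and 53.5 in LPS, and 50.6 and 51.2 CPM in control. Every library with DSF held over 3 times the CPM of any without it. Bach1 rose by a log2 fold change of 1.99 in DSF against control (SE 0.08, 3.97-fold, adjusted p = 6.55e-11). The value in DSF+LPS against LPS was 2.03 (SE 0.08, 4.07-fold, adjusted p = 2.63e-11). LPS against control gave 0.10 (SE 0.08, adjusted p = 0.39), DSF+LPS against DSF 0.14 (SE 0.07, adjusted p = 0.262), and the interaction 0.04 (SE 0.11, adjusted p = 0.882).

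With Bach1 up and Nfe2l2 down, the ratio of their levels per kilobase shifted toward the repressor. Bach1 over Nfe2l2 was 0.781 and 0.797 in DSF+LPS, 0.725 and 0.805 in DSF, 0.127 and 0.121 in LPS, and 0.172 and 0.161 in control. The mean ratio in DSF+LPS was 6.38 times that in LPS, and the mean in DSF 4.59 times that in control. The LPS libraries lay below both controls.

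The 3 small MAF proteins lack an activation domain and serve NRF2, NRF1 and BACH1 as DNA-binding partners. Maff had 197 and 179 CPM in DSF+LPS, 105 and 126 in DSF, 39.7 and 38.7 in LPS, and 8.64 and 9.24 CPM in control. The 4 groups were separate and ordered, with both agents together highest. Maff rose by 3.69 on the log2 scale in DSF against control (SE 0.11, 12.9-fold, adjusted p = 4.75e-12), the largest rise of the 9 genes there. LPS without the drug gave 2.13 (SE 0.12, 4.38-fold, adjusted p = 1.8e-09) and DSF+LPS against LPS 2.26 (SE 0.10, 4.80-fold, adjusted p = 7.33e-11). The rise in DSF+LPS against DSF was 0.70 (SE 0.09, adjusted p = 0.000257). The interaction was -1.43 (SE 0.15, adjusted p = 6.95e-06), so the log2 rise with LPS was smaller in the presence of DSF.

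Mafk was at 234 and 234 CPM in DSF+LPS, 151 and 174 in DSF, 51.7 and 49.6 in LPS, and 29.2 and 30.1 CPM in control. The order of the groups was that of Maff, again without overlap. Its log2 fold change was 2.46 in DSF against control (SE 0.09, adjusted p = 1.59e-11) and 2.21 in DSF+LPS against LPS (SE 0.08, adjusted p = 1.66e-11). LPS raised Mafk by 0.77 without the drug (SE 0.09, adjusted p = 6.16e-06) and by 0.52 with it (SE 0.08, adjusted p = 0.000838). The difference between those responses was -0.25 (SE 0.12, adjusted p = 0.164).

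Mafg, the most abundant small MAF transcript in control cells, had 337 and 411 CPM in DSF+LPS, 337 and 310 in DSF, 172 and 165 in LPS, and 132 and 130 CPM in control. DSF+LPS and DSF overlapped, and both lay above LPS and control. Mafg rose by 1.30 (log2, SE 0.09, adjusted p = 1.4e-08) in DSF against control and by 1.15 (SE 0.09, adjusted p = 3.09e-08) in DSF+LPS against LPS. The rise with LPS alone, 0.36 (SE 0.09, adjusted p = 0.00551), was not called with library sizes as the only scaling (0.20, adjusted p = 0.0849). It was not called either without control replicate 2 (0.35, adjusted p = 0.0541) or without LPS replicate 1 (0.33, adjusted p = 0.0532). DSF+LPS against DSF gave 0.21 (SE 0.09, adjusted p = 0.133), and 0.34 (adjusted p = 0.00372) without DSF+LPS replicate 1.

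Per kilobase of exon, the 3 small MAF transcripts summed to 196 and 202 CPM per kilobase in DSF+LPS, 139 and 149 in DSF, 59.3 and 57.0 in LPS, and 34.4 and 34.5 in control. The mix changed as well as the sum. Maff made up 38.8% and 34.1% of the sum in DSF+LPS, 29.0% and 32.8% in DSF, 25.8% and 26.2% in LPS, and 9.69% and 10.3% in control. Mafg made up 30.6% and 36.2% in DSF+LPS, 43.1% and 37.2% in DSF, 51.8% and 51.5% in LPS, and 68.6% and 67.3% in control. Mafk made up 30.6% and 29.7% in DSF+LPS, 27.9% and 30.0% in DSF, 22.4% and 22.3% in LPS, and 21.8% and 22.4% in control. Its share was thus higher in every library with DSF than in any without it. These shares are descriptions and carry no test.

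**Figure D2:**
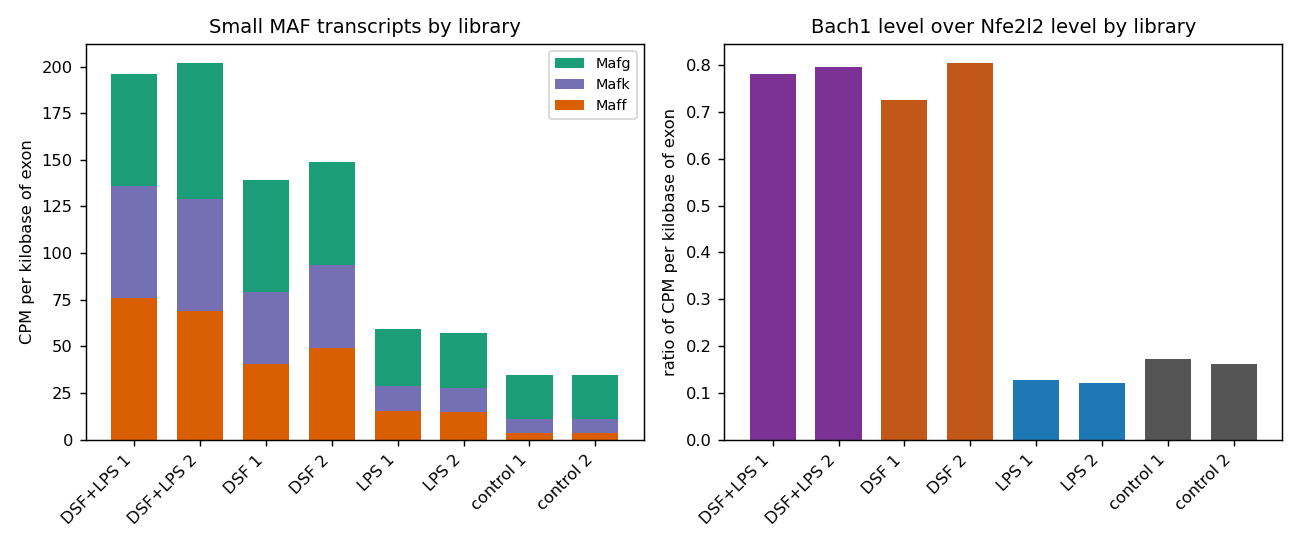
Left, summed level of Maff, Mafk and Mafg in CPM per kilobase of exon in each library, stacked by gene. Right, the ratio of the Bach1 level to the Nfe2l2 level per kilobase in each library, which lies between 0.725 and 0.805 in the 4 libraries with DSF and between 0.121 and 0.172 in the 4 without.

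Nqo1 encodes a quinone reductase and is a standard readout of NRF2. It was the lowest of the 9 transcripts, at 7.32 and 12.7 CPM in DSF+LPS, 15.9 and 13.3 in DSF, 2.55 and 4.45 in LPS, and 2.48 and 2.53 CPM in control. Relative to their level, libraries of the LPS and of the DSF+LPS group differed more among themselves than those of the other groups. Nqo1 rose by 2.54 in DSF against control (log2, SE 0.28, adjusted p = 2.31e-06) and by 1.51 in DSF+LPS against LPS (SE 0.27, adjusted p = 0.000217), the last between 1.08 and 1.95 over the alternatives. LPS against control gave 0.48 (SE 0.31, adjusted p = 0.288) and DSF+LPS against DSF -0.55 (SE 0.24, adjusted p = 0.161). That last value was called lower with no filter (-0.55, adjusted p = 0.0386) and without DSF+LPS replicate 2 (-0.97, adjusted p = 0.00795). The interaction, -1.03 (SE 0.40, adjusted p = 0.0855), was called without DSF+LPS replicate 2 (-1.43, adjusted p = 0.0031) and without LPS replicate 1 (-1.37, adjusted p = 0.03).

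Osgin1, an oxidative stress-induced growth inhibitor whose promoter window held the MAF recognition motif printed above, had 119 and 108 CPM in DSF+LPS, 103 and 114 in DSF, 7.51 and 8.32 in LPS, and 32.2 and 28.2 CPM in control. It was the only one of the 9 that fell with LPS, and its DSF+LPS and DSF libraries overlapped. LPS lowered it by a log2 fold change of -1.93 (SE 0.12, adjusted p = 6.23e-09). DSF against control gave 1.85 (SE 0.10, 3.60-fold, adjusted p = 1.06e-09). It rose in DSF+LPS against LPS by 3.84 (SE 0.11, 14.3-fold, adjusted p = 1.61e-12), the largest change of any of the 9 genes in any comparison. The value in DSF+LPS against DSF was 0.06 (SE 0.09, adjusted p = 0.739), and the interaction was 1.99 (SE 0.15, adjusted p = 2.58e-07).

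**Figure D3:**
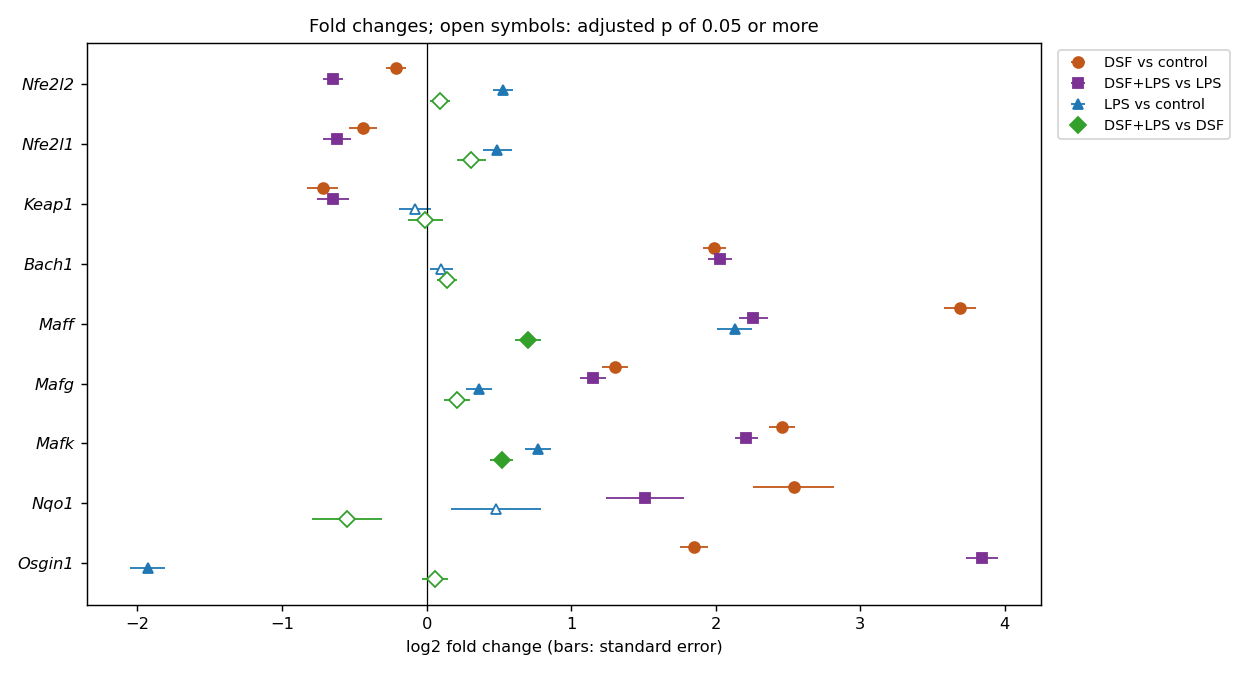
Log2 fold change of the 9 transcripts in 4 comparisons, with standard error bars; filled symbols have an adjusted p under 0.05. DSF against control and DSF+LPS against LPS lie on the same side of 0 for each gene. Among genes that differ in size between them are Maff (3.69 and 2.26), Osgin1 (1.85 and 3.84), Nfe2l2 (-0.21 and -0.65) and Nqo1 (2.54 and 1.51). The interaction was not called for Nqo1.

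The interaction subtracts the LPS response in solvent (LPS against control) from that in DSF (DSF+LPS against DSF). It was called for 3 of the 9 genes: above 0 for Osgin1 (7.58% of all genes were called above 0) and below 0 for Nfe2l2 and Maff (12.2% below 0). These 3 calls held under all 14 alternatives, with log2 values between 1.89 and 2.10 for Osgin1, between -1.53 and -1.25 for Maff and between -0.49 and -0.39 for Nfe2l2. An interaction past the threshold was not found for the other 6 genes, which does not show that their responses were alike.

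Set side by side per kilobase of exon, the order of the 9 levels differed between groups. In DSF+LPS the mean levels were highest for Maff (72.5 CPM per kilobase), Mafg (66.6) and Mafk (60.0), whose libraries touched or overlapped from one to the next. Nfe2l2 (45.7), Osgin1 (42.3), Bach1 (36.0) and Nfe2l1 (34.0) followed, the last 2 overlapping, and then Keap1 (15) and Nqo1 (6.45). In DSF, Mafg led (57.7 CPM per kilobase), Maff (44.5), Nfe2l2 (42.8), Mafk (41.7) and Osgin1 (40.6) came next, each overlapping the next, and Bach1 (32.7), Nfe2l1 (27.5), Keap1 (15.1) and Nqo1 (9.39) stood apart. In LPS, Nfe2l2 (71.5) and Nfe2l1 (52.2) led, then Mafg (30.0), Keap1 (23.5), Maff (15.1), Mafk (13.0), Bach1 (8.84), Osgin1 (2.96) and Nqo1 (2.25), and only the last 2 overlapped. In control, the order was Nfe2l2 (49.4 CPM per kilobase), Nfe2l1 (37.3), Keap1 (24.8), Mafg (23.4), Osgin1 (11.3), Bach1 (8.24), Mafk (7.60), Maff (3.45) and Nqo1 (1.61), with no overlap between neighbours. Bach1, Mafk and Maff were thus among the 4 lowest transcripts of control cells, and Maff and Mafk among the 3 highest of DSF+LPS cells. The exon lengths come from an annotation of GRCm38 and count all isoforms, so levels between genes are approximate.

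Of 36 other NRF2 target genes, 34 were tested, and DSF raised most of them. In DSF against control 28 rose, beside 31.0% of all genes, and 1 fell, beside 27.1%. Their median log2 fold change was 0.90, where that of all genes was 0.05. Against LPS alone, DSF+LPS gave 28 that rose (33.7% of all genes) and 2 that fell (31.6%). The median was then 0.96, where that of all genes was 0.04. Hmox1, which encodes heme oxygenase 1, is known as a gene that BACH1 represses and NRF2 activates. It had 6090 and 7720 CPM in DSF+LPS, 6762 and 6183 in DSF, 212 and 213 in LPS, and 188 and 181 CPM in control. Its log2 fold change was 5.13 in DSF against control (SE 0.10, 35.1-fold, adjusted p = 7.69e-14) and 5.02 in DSF+LPS against LPS (SE 0.10, 32.5-fold, adjusted p = 4.4e-14). Srxn1, which encodes sulfiredoxin, had 788 and 1170 CPM in DSF+LPS against 92.0 and 91.9 in LPS, a log2 fold change of 3.41 (SE 0.14, adjusted p = 5.77e-11).

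Blvra, for biliverdin reductase A, went against the list: it fell by 0.54 in DSF against control (log2, SE 0.08, adjusted p = 5.23e-05) and by 0.60 in DSF+LPS against LPS (SE 0.08, adjusted p = 1.41e-05). Gsr, which encodes glutathione reductase, was at 114 and 157 CPM in DSF+LPS against 188 and 186 in LPS (log2 -0.46, SE 0.11, adjusted p = 0.00214). Without LPS it moved the other way, with 140 and 126 CPM in DSF and 105 and 100 CPM in control (log2 0.37, SE 0.11, adjusted p = 0.0115), a call lost with library sizes as the only scaling and without control replicate 2 or DSF replicate 1 (adjusted p up to 0.101). In DSF against control, G6pdx (-0.08), Tkt (-0.06), Ugdh (0.03), Cbr1 (-0.06) and Abcc4 (0.06) did not pass the test, with adjusted p between 0.313 and 0.84. In DSF+LPS against LPS, G6pdx (-0.11), Me1 (0.24), Ugdh (0.09) and Abcc4 (-0.05) did not pass, with adjusted p between 0.0933 and 0.629. G6pdx and Tkt encode enzymes of the pentose phosphate pathway. With library sizes as the only scaling, which moves the median of all genes by -0.10 in DSF against control, G6pdx (-0.18, adjusted p = 0.0214) and Tkt (-0.16, adjusted p = 0.0136) were called lower there. G6pdx was then also called lower in DSF+LPS against LPS (-0.16, adjusted p = 0.0367), and Me1 was called higher with the filter at a mean of 5 CPM (0.36, adjusted p = 0.0157).

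LPS against control split the NRF2 targets, with 8 higher (15.2% of all genes) and 7 lower (13.8%) and a median of -0.02. With library sizes as the only scaling, which moves the median of all genes by -0.14 in that comparison, 7 were higher and 11 lower. Slc7a11, the cystine transporter subunit, had 354 and 441 CPM in DSF+LPS, 440 and 382 in DSF, 125 and 135 in LPS, and 14.5 and 13.3 CPM in control. It rose by 3.23 with LPS alone (log2, SE 0.12, adjusted p = 2.17e-11) and by 4.89 with DSF alone (SE 0.12, adjusted p = 8.57e-13). Its interaction was -3.28 (SE 0.15, adjusted p = 2.33e-09). Sqstm1, for the KEAP1-binding autophagy receptor p62, had 4147 and 5331 CPM in DSF+LPS, 3475 and 3454 in DSF, 1028 and 997 in LPS, and 428 and 425 CPM in control. It rose by 1.25 with LPS (SE 0.09, adjusted p = 3.06e-08), and by 0.45 in DSF+LPS against DSF (SE 0.08, adjusted p = 0.00404).

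Slc40a1, the iron exporter ferroportin, was, like Osgin1, lower in LPS than in control. It had 62.9 and 77.8 CPM in DSF+LPS, 125 and 97.7 in DSF, 11.2 and 11.3 in LPS, and 26.4 and 26.5 CPM in control. LPS lowered it by -1.23 without the drug (log2, SE 0.14, adjusted p = 7.53e-06). With the drug the change was -0.67 (SE 0.12, adjusted p = 0.00284), not called without DSF replicate 1, when the adjusted p was 0.053. The interaction was called above 0 for 6 targets (7.58% of all genes) and below 0 for 7 (12.2%). Gclc, the catalytic subunit of glutathione synthesis, was among those above 0, at 0.62 (SE 0.10, adjusted p = 0.000309). Gsr was among those below 0, at -0.84 (SE 0.16, adjusted p = 0.00173). In DSF+LPS against DSF, 5 targets rose (5.53% of all genes) and 2 fell (6.53%). With library sizes as the only scaling, 1 target rose and 4 fell there.

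**Figure D4:**
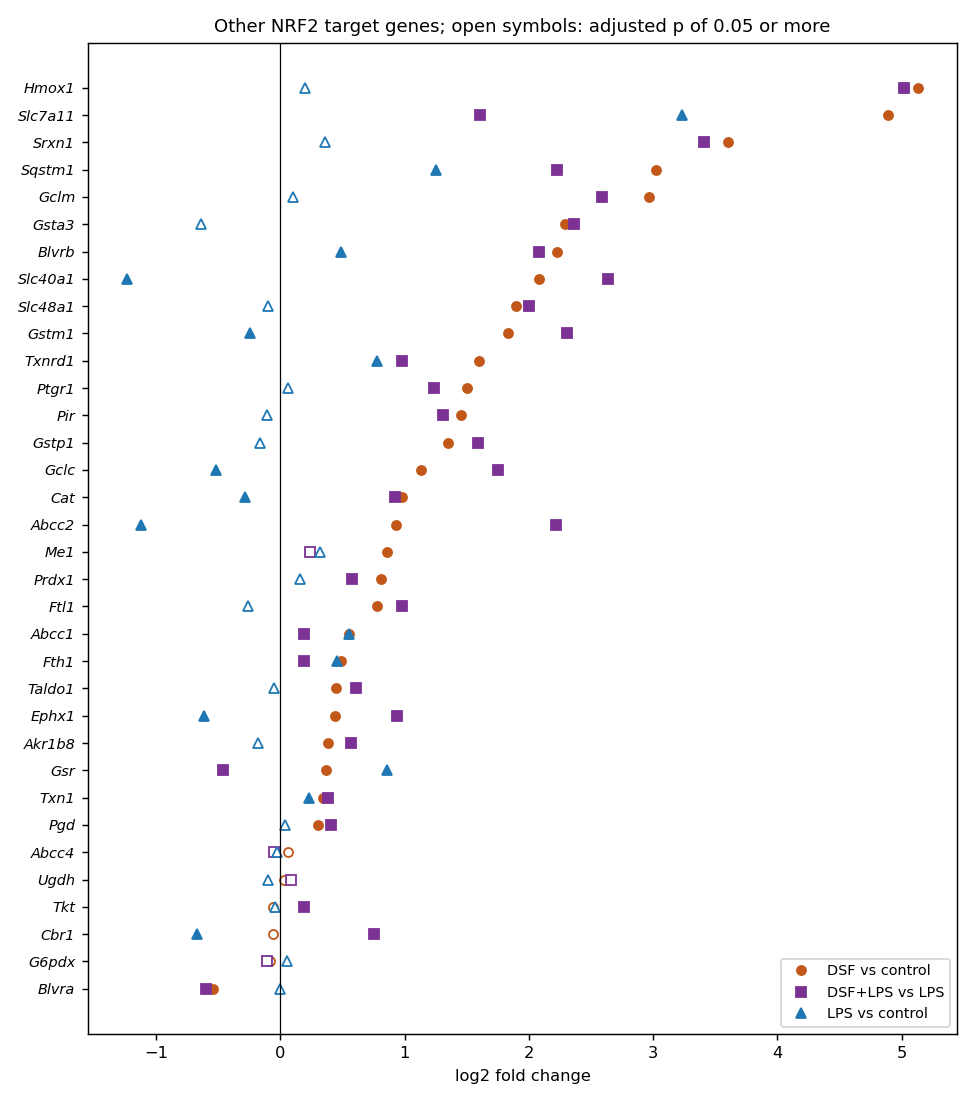
Log2 fold change of the 34 other NRF2 target genes tested, in order of their change in DSF against control; filled symbols have an adjusted p under 0.05. In DSF against control 28 lie above 0 with a filled symbol, from Hmox1 at 5.13 downward, and Blvra at -0.54 is the one that fell.

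Of the 14 genes tested that act in the turnover of NRF2 and BACH1 protein, 4 rose and 7 fell in DSF against control, where 31.0% of all genes rose and 27.1% fell. DSF+LPS against LPS had 3 of the 14 higher and 7 lower, where the shares of all genes were 33.7% and 31.6%. In both comparisons the share that rose was near or below that of all genes, and the share that fell was above it. The list as a set was not tested. Btrc, the beta-TrCP subunit that recognises NRF2 phosphorylated by GSK3, had 5.75 and 7.49 CPM in DSF and 13.8 and 12.7 CPM in control (log2 -1.0, SE 0.17, adjusted p = 0.000149). Dpp3, whose product competes with NRF2 for KEAP1, fell by 0.84 in DSF against control (SE 0.08, adjusted p = 6.94e-07). Gsk3b, a kinase that marks NRF2 for beta-TrCP, rose by 0.69 (SE 0.10, adjusted p = 4.32e-05) in DSF against control and by 0.83 (SE 0.10, adjusted p = 6.08e-06) in DSF+LPS against LPS. Fbxo22, the ligase subunit that degrades BACH1 bound to heme, had 29.7 and 31.3 CPM in DSF+LPS against 55.7 and 55.5 in LPS (log2 -0.87, SE 0.09, adjusted p = 6.28e-07). LPS against control raised 4 of this list (15.2% of all genes rose) and lowered 1 (13.8% fell). With library sizes as the only scaling, 3 of the list rose and 3 fell. The 2 largest rises with LPS were Fbxw11 (0.60, SE 0.07, adjusted p = 7e-06), a beta-TrCP paralogue, and Syvn1 (0.52, SE 0.08, adjusted p = 8.06e-05), an NRF2 ligase of the endoplasmic reticulum.

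Among 6 tested genes that process NRF1, 3 rose (31.0% of all genes) and 1 fell (27.1%) in DSF against control. Hcfc1, a cofactor that with OGT stabilizes NRF1, had 195 and 174 CPM in DSF and 373 and 404 CPM in control (log2 -1.07, SE 0.09, adjusted p = 9.36e-08). Fbxw7, a ligase subunit for NRF1, rose by 0.81 (SE 0.11, adjusted p = 2.53e-05). Ngly1, the deglycosylase that NRF1 needs for its activity, had 23.2 and 17.0 CPM in LPS and 9.0 and 10.2 CPM in control, a log2 rise of 1.06 (SE 0.16, adjusted p = 9.81e-05). In DSF+LPS against LPS 2 rose and 1 fell, Hcfc1 at -1.14 (SE 0.09, adjusted p = 3.41e-08). These counts were near or below the shares of all genes there, 33.7% higher and 31.6% lower.

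The 31 proteasome subunit genes are the best known targets of NRF1. With DSF against control 5 rose and 6 fell with a median of 0.00, fewer in either direction than the 31.0% and 27.1% of all genes. With DSF+LPS against LPS 6 rose and 12 fell with a median of -0.03, beside 33.7% and 31.6% of all genes. With library sizes as the only scaling, 4 rose and 11 fell in DSF against control. Psmd8 had 444 and 490 CPM in DSF and 306 and 308 CPM in control (log2 0.60, SE 0.07, adjusted p = 5.52e-06), and Psma4 fell by 0.37 (SE 0.09, adjusted p = 0.00199). In DSF+LPS against LPS, Psmd6 fell by 0.64 (SE 0.08, adjusted p = 6.26e-06). LPS against control raised 12 and lowered none by edgeR, beside 15.2% of all genes higher and 13.8% lower. DESeq2 gave the same counts for the list, and none was lower at an unadjusted p under 0.05. With library sizes as the only scaling, 1 rose and none fell. Psma6 rose by 0.42 there (SE 0.08, adjusted p = 0.000638), and passed the test under all 15 alternatives.

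Other genes of the CNC and MAF families were examined beside the 9. Maf encodes c-MAF, a factor that, unlike MAFF, MAFG and MAFK, carries an activation domain. It had 8.68 and 7.31 CPM in DSF+LPS, 9.42 and 11.4 in DSF, 52.2 and 51.3 in LPS, and 78 and 87.2 CPM in control. Its log2 fold change was -3.00 in DSF against control (SE 0.12, adjusted p = 5.45e-11) and -2.69 in DSF+LPS against LPS (SE 0.12, adjusted p = 1.38e-10). Bach2, the relative of Bach1 best known from lymphocytes, was called higher in DSF+LPS against LPS (3.41, SE 0.52, adjusted p = 4.09e-05), from 45 and 36 counts against 3 and 5. Mafa had 21 and 23 counts in DSF+LPS, 23 and 15 in DSF, none in LPS, and 2 and 0 counts in control, so no fold is given. Nfe2l3 had 27 and 5 counts in DSF+LPS, 19 and 16 in DSF, 4 and 3 in LPS, and 2 and 1 counts in control; its call in DSF against control was lost without control replicate 2 (adjusted p = 0.0565), and that in DSF+LPS against LPS without any of 3 libraries (LPS replicate 1 or 2, or DSF+LPS replicate 1).

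For each of the 9 genes, the 3 genes with the nearest profile were taken by Euclidean distance of log2 CPM over the 8 libraries, each centred on its own mean, among genes averaging at least 5 CPM. The 8 points fall into 4 groups, so such likeness is a description. Nearest to Bach1 were Stx3 (distance 0.17, r = 0.998), Ercc6 (0.21, r = 0.999) and Ankrd11 (0.23, r = 0.998). Stx3 averaged 112 CPM in DSF+LPS, 98.1 in DSF, 27.1 in LPS and 25 CPM in control. Nearest to Nfe2l2 were Cul1, Surf4 and Slc44a1 (distance 0.14 each), and to Keap1 Trim11 (0.16), Slc35c1 (0.17) and Wdr92 (0.18). Cul1 is itself one of the 14 turnover genes, as the scaffold of the beta-TrCP ligase.

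By distance, Maff had no such close neighbour: Tent5c (0.58, r = 0.996), Csrnp1 (0.62, r = 0.994) and Fosl1 (0.69, r = 0.993) came nearest. By r these lay closer than the genes nearest to Nfe2l2 (r of 0.987 to 0.989). Among the genes nearest to Mafg were Zfand3 (0.21) and Asns (0.23), and nearest to Mafk were Ubb (0.40), Per1 (0.43) and Nupr1 (0.46). For Osgin1 these were Angpt2 (0.37), Klhl24 (0.40) and Zan (0.59). Angpt2 averaged 133 CPM in DSF+LPS, 128 in DSF, 11.1 in LPS and 34.2 CPM in control. Nfe2l1 lay nearest to Polr3a (0.16), Cyb561a3 (0.18) and Arv1 (0.25). Nqo1, with the lowest counts of the 9, had the most distant neighbours, Zfp729b (0.66), Tshz1 (0.82) and Atf5 (0.83). Among the 9 themselves, Pearson's r over the 8 libraries was highest for Mafg and Mafk (0.99) and for Bach1 and Mafk (0.98), and lowest for Nfe2l2 with Osgin1 and for Keap1 with Bach1 (-0.95 each).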

How the data were processed

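The deposited file holds raw read counts for each gene in the 8 libraries, as whole numbers that the authors had not normalized. Per the labels' protocols, TRIzol was used for extraction and a VAHTS mRNA-seq kit for the libraries. The submitters' processing notes name GRCm39 and DESeq2 without their role. The aligner, counter, annotation and use of strand were not given in the sources used here, so counts of overlapping genes are uncertain: Keap1 with antisense Gm16754, Mafg with Sirt7 (124 shared exon bases, 2.2% of Mafg) and Mafk with Tmem184a (169 bases, 4.3%).

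Of 55414 identifiers, 52081 matched a symbol of GENCODE M21. Counts were tested with edgeR 4.0.16 in R 4.3.3 (quasi-likelihood test, TMM scaling, filterByExpr with minimum count 10 and minimum total 15) with all 8 libraries in 1 fit, group means as the only terms, and Benjamini-Hochberg adjustment over 16304 genes. Levels are CPM after TMM scaling. SE is approximate: it was derived from the fold change and its F statistic. The script was tested on simulated counts. Alternatives were median-of-ratios size factors, library size alone, DESeq2 1.42.0, no filter, a filter at a mean of 5 CPM, the compared groups alone, a replicate block, and each library left out. Likeness of profiles used log2(CPM + 0.5).

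The 9 genes and the 5 gene lists were chosen with earlier results of these data known. Of each list, the text names up to 2 called genes with the largest rise and 2 with the largest fall per comparison and exceptions where 5 or fewer; not all that this rule names are given. The labels do not say whether libraries with the same replicate number belong together. The difference between replicates 1 and 2 correlated at -0.12 between DSF+LPS and DSF and at 0.04 to 0.05 between other groups. Such low values do not exclude pairing, since paired libraries with a small shared effect could give them too. Some results that the rules would name are not reported here.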

Additional observations from a re-analysis of the deposited data

Results flagged for a closer look

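For 3 of the 9 transcripts the LPS response itself differed with the drug, by the interaction term of the edgeR fit. For Nfe2l2 the difference was -0.44 on the log2 scale (adjusted p = 0.00401): DSF+LPS against DSF gave 0.09 and LPS against control 0.53. For Maff it was -1.43 (adjusted p = 6.95e-06), with 0.70 in DSF+LPS against DSF and 2.13 in LPS against control. For Osgin1 it was 1.99 (adjusted p = 2.58e-07), with 0.06 in DSF+LPS against DSF and -1.93 in LPS against control.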

How the results depend on the processing

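Over 666 values of the 9 genes under alternative settings, 634 kept direction and side of the threshold, 5 lost the call, 14 gained it and 13 changed sign, none of them a called value. Groups of 2 libraries and an unknown counting method limit all results. Genes called ran from 3146 to 5545 for LPS against control, from 399 to 2406 for DSF+LPS against DSF and from 2003 to 3797 for the interaction when single libraries were left out (main counts 4731, 1966 and 3217). The lowest values came without control replicate 2, without DSF replicate 1 and without LPS replicate 2; the interaction also fell to 2072 without control replicate 1. For DSF+LPS against DSF, fitting only these groups called 524 genes. There 4 of the 9 genes were called with no filter, and 2 to 4 with single libraries left out. With library size alone the share of calls that were higher fell to 30.0% (52.5% with TMM) for LPS against control and to 17.5% (45.8%) for DSF+LPS against DSF, with the median of all genes moved by -0.14 and -0.11; for DSF against control it moved by -0.10.

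Whether the replicate numbers pair the libraries is not known. The replicate block called 4734, 9421, 10596, 2129 and 3226 genes in the 5 comparisons, against 4731, 9467, 10653, 1966 and 3217 without it. It added Nfe2l1 in DSF+LPS against DSF (adjusted p = 0.0485) and Nqo1 in the interaction (adjusted p = 0.0488).

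Signs changed for uncalled values near 0. With library size alone, LPS against control gave -0.06 for Bach1, DSF+LPS against DSF gave -0.01 for Nfe2l2 and -0.04 for Osgin1, and DSF against control gave -0.07 for Ugdh and -0.05 for Abcc4. Keap1 in DSF+LPS against DSF was 0.003 with median-of-ratios size factors and 0.004 with DESeq2. With the stricter filter, DSF against control gave 0.02 for G6pdx, 0.04 for Tkt and 0.04 for Cbr1, and DSF+LPS against LPS gave 0.01 for G6pdx and 0.07 for Abcc4; with no filter, Ugdh was -0.01 in DSF against control. With single libraries left out, Ugdh ran from -0.16 to 0.15 and Abcc4 from -0.07 to 0.12 in DSF against control, and Abcc4 from -0.13 to 0.02 in DSF+LPS against LPS. Likewise Keap1 ran from -0.16 to 0.17 and Osgin1 from -0.02 to 0.15 in DSF+LPS against DSF, and in the interaction Keap1 from -0.06 to 0.26 and Bach1 from -0.02 to 0.16. The cause was not tested.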
